A study of Mus musculus with 15 samples.

Results

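The genes of glucose handling were followed in mouse liver tumors: 44 genes that encode glucose transporters, the enzymes of glycolysis and gluconeogenesis, the pentose phosphate pathway, liver glycogen synthase and phosphorylase, the kinases of pyruvate dehydrogenase, and the enzymes that make and break down fructose 2,6-bisphosphate. They were chosen by name among the non-control probes of the array, and all 44 of the 22594 genes with a symbol on it had a probe. Of these, 43 were found under their own name and Pkm2 under its synonym Pkm. The rule goes by name alone, but it was set with earlier results of these data known.

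Glycolysis splits glucose to pyruvate in almost every cell, and the liver also runs the path backwards to release glucose during fasting. Hepatocytes carry their own isoforms for several steps, among them the transporter GLUT2 (Slc2a2), the liver type pyruvate kinase (Pklr), fructose bisphosphatase 1 (Fbp1) and the liver type of the bifunctional enzyme that sets fructose 2,6-bisphosphate (Pfkfb1). Other tissues and many tumors use general isoforms in their place, such as GLUT1 (Slc2a1), muscle type pyruvate kinase (Pkm2) and Pfkfb3.

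RNA of 15 liver tumors was hybridised to 1-colour Agilent 8x60K arrays, with 5 tumors in each group. The first group was hepatocellular carcinoma (HCC) of p53f/f mice, whose Trp53 alleles carry loxP sites but are intact. The others were HCC and intrahepatic cholangiocarcinoma (ICC) of p53LKO mice, in which Trp53 is deleted in the liver. Per the study the mice had a C57/BL6J background and those of its HCC transcriptome were males, while the sex of the mouse that gave an ICC alone is not given in the sources used here. All had received 0.5 µl/g carbon tetrachloride (CCl4) intraperitoneally in olive oil for 16 weeks from the age of 6 weeks. The study took mice at several ages and followed its controls for longer, and the age at which each array tumor was taken is not given in the sources used here, so a difference in age between the genotypes cannot be told apart from the deletion. No untreated or healthy liver was among the samples. The HCC comparison sets deletion of Trp53 against its controls under the same toxin, and the ICC comparisons set tumor types against each other. Replicates 4 and 5 of the p53f/f HCC were tumors of 1 mouse, and 4 p53LKO mice gave both an HCC and an ICC (HCC replicates 1, 2, 3 and 4 with ICC replicates 3, 5, 1 and 2).

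Between 55.1% and 70.1% of the non-control probes were well above background in p53f/f HCC, between 37.0% and 62.1% in p53LKO HCC, where the low values of 46.4% and 37.0% belonged to replicates 1 and 2, and between 42.5% and 47.0% in ICC. All p53f/f HCC and p53LKO HCC replicates 3 to 5 lay in the upper row of their slide, all ICC and p53LKO HCC replicates 1 and 2 in the lower row, so row and group cannot be told apart between ICC and p53f/f HCC. The only probe named Trp53, which the array annotation maps to a copy on another chromosome, ran from -1.27 to -0.68 in p53f/f HCC, from -3.86 to -2.75 in p53LKO HCC and from -4.19 to -2.31 in ICC, on the log2 scale described below. Whether it lies in the deleted part of the gene was not tested.

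Whole tumors were measured, so fewer cells of a type and less RNA per cell cannot be told apart. The summed level of 10 hepatocyte markers was 11.47 to 12.27 in p53f/f HCC, 11.07 to 11.58 in p53LKO HCC and 9.34 to 10.57 in ICC (log2), with every marker well above background in each group. Within ICC it was 10.45, 9.34, 9.93, 10.57 and 9.97 in replicates 1 to 5. The 9 biliary markers summed to 1.77 to 4.78, 2.31 to 3.36 and 6.04 to 7.16, with Epcam above background on no p53LKO HCC array and Onecut1 and Muc1 on no ICC array. The 8 fibroblast and stellate cell markers summed to 4.99 to 6.88, 6.23 to 7.98 and 8.95 to 9.78, with Des above background on 3, 3 and 1 of the 5 arrays and the rest on all. The 3 red cell markers summed to 4.90 to 8.20, 5.48 to 7.09 and 4.17 to 5.29. The 10 leukocyte markers summed to 6.80 to 7.76, 6.68 to 7.45 and 7.09 to 8.12, the 6 endothelial markers to 4.98 to 5.79, 4.78 to 5.42 and 3.89 to 5.26, and the 6 skeletal muscle markers to -0.83 to -0.20, -0.99 to 0.41 and 0.33 to 1.19, with Ckm above background on no array, Myh4 on no p53f/f HCC array, and Mylpf, Myh4 and Tnnt3 on no ICC array, so that the ICC sum rests on Tnni2 and Acta1. Some members of these lists were called against the rest (calls and log2 fold changes are described below). In p53LKO HCC against p53f/f HCC, S100a8 and S100a9 (log2 fold change 1.84 and 2.10) and Lum (1.69) were called higher and Itgam (-2.09) and Stab2 (-1.17) lower. Against p53LKO HCC, ICC had 6 of the 8 fibroblast and stellate cell markers, 2 of the 10 leukocyte markers (Lyz2, 2.99, and Itgam, 1.56), the endothelial Vwf (1.46) and the muscle gene Tnni2 (1.13) called higher and all 3 red cell markers lower. In ICC against p53f/f HCC, 6 of the 8, 3 of the 10 (Lyz2, 3.25, Adgre1, 1.06, and Cd68, 1.004) and Tnni2 (1.83) were called higher and Stab2 (-2.03) and 2 of the 3 red cell markers lower. Of the biliary markers, Krt19, Krt7, Epcam and Spp1 were called higher in ICC in both comparisons. Onecut1 (-1.75) was called lower against p53f/f HCC, and the biliary sum in ICC rests mostly on Spp1 (mean level 6.43). The part of these cell types in the results below was not tested.

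**Figure D1:**
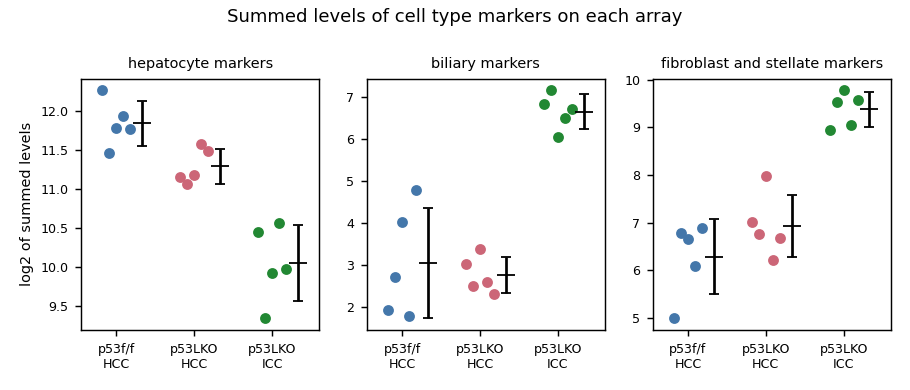
Summed level of hepatocyte, biliary, and fibroblast and stellate cell markers on each array (points, log2 of the sum of levels relative to the 75th percentile of the array), with mean and SD of the 5 tumors of a group (bars). All ICC lay below all HCC for the hepatocyte markers and above all HCC for the other 2 lists.

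Of these genes, 42 had an entry in the RefSeq promoter table (build GRCm38.p6), and the 250 bases before the start of 6 of them are given here because their transcripts carry the isoform comparison (Slc2a2, Pklr, Pkm2, Pfkfb3) or the changes of Pck1 and Hk2 between the HCC groups. Capitals mark matches, on either strand, to the E-box CACGTG, the hypoxia response core ACGTG (which every E-box match contains), the cAMP response element TGACGTCA or the TATA box TATAAA. For Pklr the downstream of 2 listed starts is shown, and for Pkm2 and Pfkfb3 the upstream of 2.
Slc2a2 (chr3:28697653-28697902, plus strand): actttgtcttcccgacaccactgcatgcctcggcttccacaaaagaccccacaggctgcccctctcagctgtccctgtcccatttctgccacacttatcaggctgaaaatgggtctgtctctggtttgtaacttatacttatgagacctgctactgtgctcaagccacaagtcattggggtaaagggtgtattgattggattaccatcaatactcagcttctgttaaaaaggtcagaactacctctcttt
Pklr (chr3:89136373-89136622, plus strand): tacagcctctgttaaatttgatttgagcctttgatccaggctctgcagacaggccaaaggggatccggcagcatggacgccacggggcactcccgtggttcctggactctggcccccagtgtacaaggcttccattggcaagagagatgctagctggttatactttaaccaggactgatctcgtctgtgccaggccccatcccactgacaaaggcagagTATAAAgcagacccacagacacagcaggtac
Pck1 (chr2:173152823-173153072, plus strand): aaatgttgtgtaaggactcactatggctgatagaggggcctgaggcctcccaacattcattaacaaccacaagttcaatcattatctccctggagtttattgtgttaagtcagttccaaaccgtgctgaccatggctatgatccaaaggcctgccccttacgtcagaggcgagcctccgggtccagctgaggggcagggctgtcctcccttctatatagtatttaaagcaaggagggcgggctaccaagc
Hk2 (chr6:82774455-82774704, minus strand): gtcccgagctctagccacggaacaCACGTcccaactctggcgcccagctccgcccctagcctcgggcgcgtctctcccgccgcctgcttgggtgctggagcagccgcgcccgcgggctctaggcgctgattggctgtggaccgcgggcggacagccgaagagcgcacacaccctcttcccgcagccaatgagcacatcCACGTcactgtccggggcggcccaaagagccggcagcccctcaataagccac
Pkm2 (chr9:59656326-59656575, plus strand): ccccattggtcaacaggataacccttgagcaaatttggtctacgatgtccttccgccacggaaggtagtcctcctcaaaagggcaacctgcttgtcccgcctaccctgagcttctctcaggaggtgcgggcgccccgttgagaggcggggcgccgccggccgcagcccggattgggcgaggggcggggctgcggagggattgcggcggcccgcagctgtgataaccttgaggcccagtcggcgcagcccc
Pfkfb3 (chr2:11553930-11554179, minus strand): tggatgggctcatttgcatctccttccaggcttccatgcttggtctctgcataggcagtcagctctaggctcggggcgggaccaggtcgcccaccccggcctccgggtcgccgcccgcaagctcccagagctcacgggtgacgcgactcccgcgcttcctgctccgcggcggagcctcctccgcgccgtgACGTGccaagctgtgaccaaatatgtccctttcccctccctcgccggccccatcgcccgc
The window of Pklr held a TATA box 31 bases before the start, that of Hk2 held ACGTG on the other strand at 226 and 52 bases and that of Pfkfb3 at 60 bases. Those of Slc2a2, Pck1 and Pkm2 held none of the 4 motifs, although the other window of Pkm2 held the hypoxia response core. This core was found before at least 1 start of 16 of the 42 genes (38.1%), against 18.5% of the 27025 genes in the table. CACGTG was found in 7 of their 64 windows (6.02% of all 32851 windows), TATAAA in 4 (12.4% of all) and TGACGTCA in 1, before Ldha (1.55% of all). These are exact matches of letters only, and genes differ in their number of listed starts. Variants of a motif were not searched for, so a window without a match, such as that of Pck1, may still hold a variant.

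A level below is the log2 processed signal of the brightest probe of a gene minus the 75th percentile of its array, so it can be compared between arrays but not between genes. Differences were tested with limma across all probes, and a gene was called higher or lower at an adjusted p under 0.05 and a change over 2-fold. Values of single tumors are given in the order of replicates 1 to 5. The exact permutation test of 5 against 5 tumors, 2-sided over all groupings, cannot give a p under 0.00794, the value it takes for each pair of groups that did not overlap.

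In p53LKO HCC against p53f/f HCC, 6 of the 44 genes were called higher and 3 lower. The 6 were Pkm2, Hk2, Tkt, Eno1, Aldoa and Pfkm, and the 3 were Pck1, Eno2 and Pfkfb2. Of all 16847 genes tested, 5.42% were called higher and 9.0% lower, against 13.6% and 6.82% of these genes. The median change was 0.34 on the log2 scale, against 0.094 over all genes. The groups did not overlap for 9 of the 44 genes (20.5%, against 18.2% of all genes). Under quantile normalization 2 were called higher (Pkm2 and Eno1; 4.55%, against 5.34% of all genes) and 1 lower (Pck1; 2.27%, against 6.07%), and when the percentile was taken over probes above background on all arrays 1 was called higher (Pkm2; 2.27%, against 2.55%) and 3 lower (6.82%, against 13.1%), so that neither share stood above the background. With the 2 tumors of 1 p53f/f mouse averaged the counts were 3 (6.82%, against 4.35%) and 3 (6.82%, against 7.98%), and under scaling to spike-ins, where the median of all genes itself shifted to 0.83, they were 23 (52.3%, against 36.5%) and 1 (2.27%, against 3.47%). Of the 9 calls, those of Pkm2 and Pck1 were kept under each alternative setting and without each single array.

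In ICC against p53LKO HCC, 5 genes were called higher and 13 lower. The 5 were Ldhb, Eno2, Pdk3, Pfkfb3 and Pfkfb2. The 13 were Gys2, Pcx, Slc2a2, Pygl, Fbp1, Pklr, Pdk1, Tkt, Pdk2, Gpi1, Pgd, Pgam1 and Pfkm. Over all 16139 genes tested 12.3% were called higher and 15.5% lower, against 11.4% and 29.5% of these genes. The median change was -0.56, against -0.19 over all genes, and the groups did not overlap for 21 of the 44 genes (47.7%, against 30.7%). Under quantile normalization 4 were called higher (9.09%, against 12.3% of all genes) and 7 lower (Gys2, Pcx, Slc2a2, Pygl, Pklr, Pdk1 and Pdk2; 15.9%, against 13.7%), and with the percentile over probes above background on all arrays, where the median of all genes shifted to 0.18, 7 (15.9%, against 18.2%) and 6 (13.6%, against 8.45%). With the row as a block it was 5 (11.4%, against 9.70%) and 8 (18.2%, against 13.5%), and with the lower row alone 5 (11.4%, against 9.07%) and 7 (15.9%, against 12.2%). In both, Pfkfb4 was called higher in place of Pfkfb2 and Tpi1 was called lower, so that 4 of the higher and 7 and 6 of the lower calls were among those named. The calls of Gys2, Pcx, Pklr, Pdk1, Ldhb, Pfkfb3 and Eno2 were kept under each alternative setting that tested them and without each single array.

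In ICC against p53f/f HCC, 43 genes were tested, since Fbp2 was well above background on 1, 3 and 0 of the 5 arrays of p53f/f HCC, p53LKO HCC and ICC. Here 9 were called higher (Pfkfb3, Pdk3, Pkm2, Ldhb, Slc2a1, Hk2, Aldoa, Eno2 and Eno3) and 8 lower (Gys2, Pygl, Fbp1, Pck1, Pcx, Pklr, Pfkfb1 and Pdk1). These were 20.9% and 18.6%, against 11.3% and 11.9% of all 16793 genes tested, and the median change was -0.18 against -0.16 over all genes. The groups did not overlap for 15 of the 43 (34.9%, against 27.9% of all genes). With normexp background 5 were called higher (11.6%, against 8.19% of all genes) and 8 lower (18.6%, against 7.49%), and with the percentile over probes above background on all arrays 11 (25.6%, against 12.8%) and 5 (11.6%, against 9.49%). Under spike-in scaling, where the median of all genes shifted to 0.59, it was 13 (30.2%, against 28.4%) and 4 (9.30%, against 3.11%). With the slide as a block it was 4 (Pfkfb3, Pdk3, Pkm2 and Slc2a1; 9.30%, against 7.10% of all genes) and 2 (Gys2 and Pygl; 4.65%, against 5.69%), all among those named. Of these, Pkm2, Slc2a1, Gys2 and Pygl kept their calls under each alternative setting and without each single array.

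**Figure D2:**
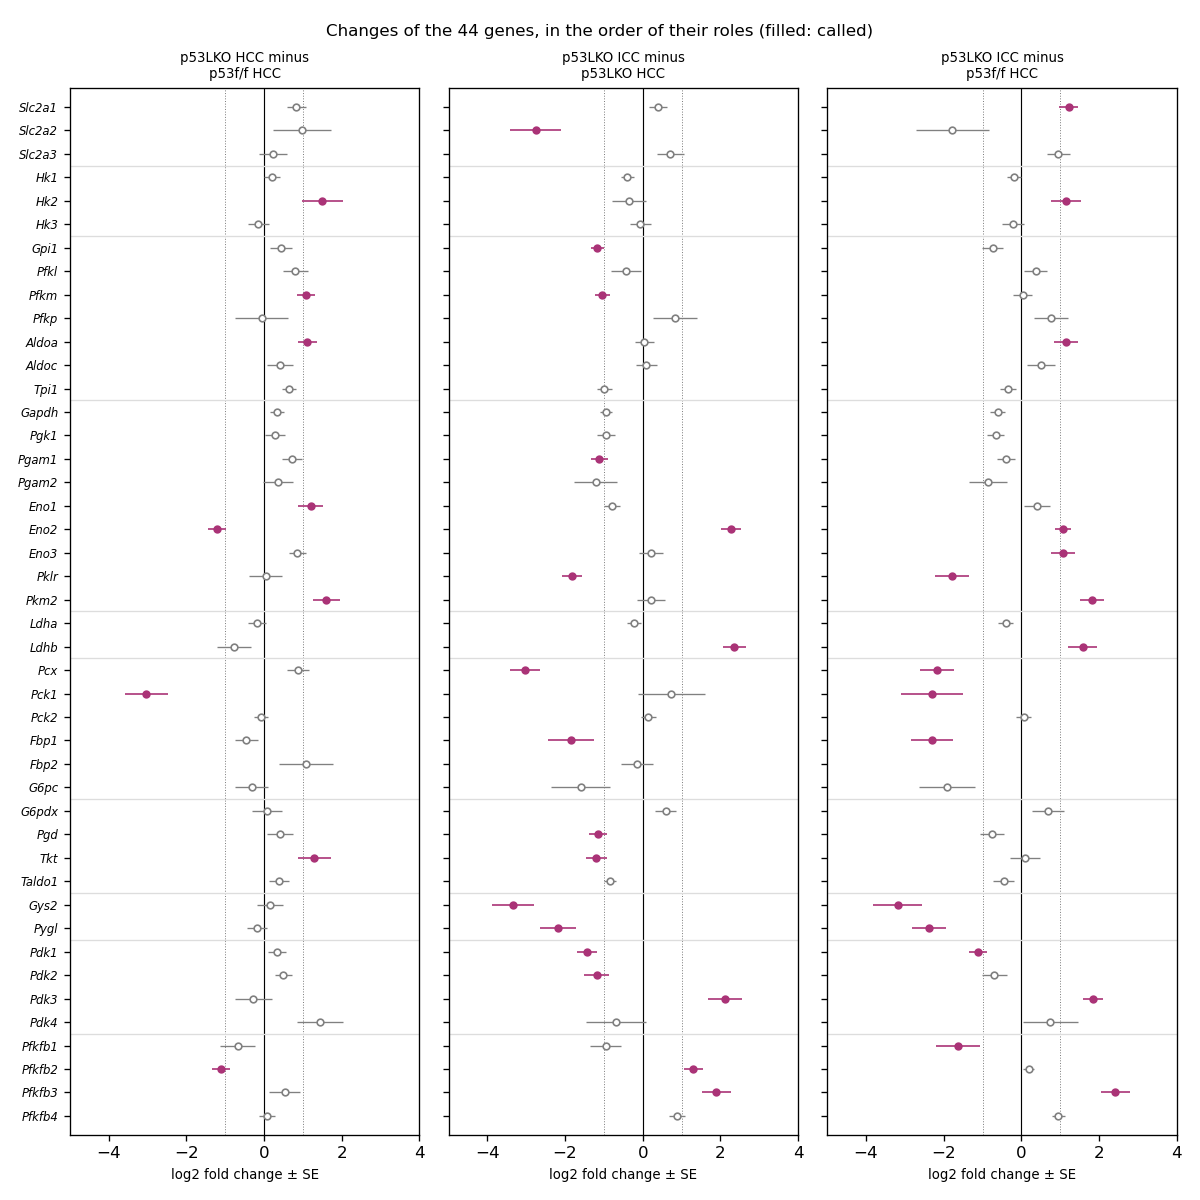
Log2 fold change with its standard error of each of the 44 genes in the 3 comparisons, ordered by role from transporters at the top to the fructose 2,6-bisphosphate enzymes at the bottom (horizontal lines part the roles). Filled points were called, dotted lines mark a 2-fold change, and Fbp2 was not tested in the right panel. Called points stand mostly to the right in the left panel (6 of 9) and mostly to the left in the middle panel (13 of 18).

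Of the 3 glucose transporters, Slc2a2 was the 1 called between ICC and p53LKO HCC and Slc2a1 the 1 called between ICC and p53f/f HCC. Slc2a2, the high capacity transporter of hepatocytes, had levels of 2.27, 5.14, 5.01, 0.83 and 2.93 in the p53f/f HCC, 4.04, 4.40, 3.42, 4.71 and 4.47 in the p53LKO HCC and 1.89, -1.28, 1.72, 2.90 and 2.03 in the ICC. Its ICC values all lay below those of p53LKO HCC, with replicate 2 far below the rest, whereas the p53f/f HCC were spread from below 4 of the ICC to above all p53LKO HCC. It fell 6.77-fold in ICC against p53LKO HCC (log2 fold change -2.76 ± 0.65 (SE), adjusted p = 0.00642), in the lower row alone by as much but without a call (-2.77, adjusted p = 0.0793), and differed from p53f/f HCC by -1.78 (adjusted p = 0.163), a difference that was not called. Slc2a1, the basal transporter of most cells and of red cells, had levels of 1.81, 2.10, 1.73, 2.61 and 2.41 in the p53f/f HCC, 3.14, 3.19, 3.23, 2.94 and 2.29 in the p53LKO HCC and 3.23, 3.44, 3.50, 2.79 and 3.78 in the ICC. The p53f/f HCC lay below all ICC, and p53LKO HCC replicate 5 lay within the p53f/f range. Slc2a1 was 2.32-fold higher in ICC than in p53f/f HCC (log2 fold change 1.21 ± 0.24 (SE), adjusted p = 0.00369). Between the HCC groups the change of 0.83 passed the adjusted p (0.0235) but not the fold limit. Slc2a3, the high affinity transporter of neurons and leukocytes, was dim, above background on 4, 3 and 1 of 5 arrays of the 3 groups in the order given. Its levels were -3.33, -3.76, -3.89, -2.73 and -2.78 in the p53f/f HCC, -3.74, -2.27, -2.55, -3.85 and -2.87 in the p53LKO HCC and -2.19, -2.73, -1.65, -2.38 and -2.76 in the ICC, and it passed the adjusted p in ICC against p53f/f HCC only, below the fold limit (log2 fold change 0.95 ± 0.30 (SE), adjusted p = 0.0305). It was called under quantile normalization (1.21), with the 2 tumors of 1 p53f/f mouse averaged (1.09) and without p53f/f replicate 4 or 5 or ICC replicate 2 or 5 (1.05 to 1.10).

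Hexokinases trap glucose in the cell as glucose 6-phosphate. Hk2, the form of muscle and fat that is frequent in tumors, had levels of -2.37, -0.028, -0.79, -1.42 and -1.10 in the p53f/f HCC, 0.79, 0.82, 1.45, -1.18 and -0.076 in the p53LKO HCC and -0.46, -0.20, 0.66, 0.033 and 0.049 in the ICC. Of the p53LKO HCC, replicates 1 to 3 lay above all p53f/f HCC and replicates 4 and 5 lay among them. The change was 2.83-fold (log2 fold change 1.501 ± 0.52 (SE), adjusted p = 0.0476; exact permutation p = 0.0556), and the call was lost without any 1 of 8 of the 10 arrays, all but p53f/f replicate 2 and p53LKO replicate 4 (log2 fold change 1.19 to 1.61, adjusted p = 0.0597 to 0.105). In the upper row alone it was 1.20 (adjusted p = 0.194). With the 2 tumors of 1 p53f/f mouse averaged it was 1.47 (adjusted p = 0.0876). In ICC against p53f/f HCC it was called as well (log2 fold change 1.16 ± 0.39 (SE), adjusted p = 0.0391), and 7 of the 10 single arrays left out ended that call (0.85 to 1.21, adjusted p = 0.0582 to 0.0929): p53f/f replicates 1, 4 and 5 and ICC replicates 2 to 5. That call was also lost with the 2 tumors of 1 p53f/f mouse averaged and with the slide as a block. Hk1 and Hk3, the forms of most cells and of blood cells, were called in no comparison by their brightest probes, with changes between -0.40 and 0.21. For Hk1, however, the brightest probe maps to chromosome 5 while the gene lies on chromosome 10. A probe at chr10:61731856-61731915 (mm9) was called higher in p53LKO HCC (log2 fold change 1.38 ± 0.38 (SE), adjusted p = 0.0182), in ICC against p53LKO HCC (log2 fold change 1.51 ± 0.47 (SE), adjusted p = 0.0222) and in ICC against p53f/f HCC (log2 fold change 2.89 ± 0.35 (SE), adjusted p = 0.000274), and another on that chromosome, at chr10:61732717-61732776, was called in none, so the direction of Hk1 is uncertain.

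Phosphofructokinase commits fructose 6-phosphate to glycolysis, and of its 3 subunits Pfkm was the 1 called. Pfkm, the muscle subunit, had levels of 1.18, 1.90, 1.21, 0.87 and 0.69 in the p53f/f HCC, 2.31, 2.36, 1.94, 2.16 and 2.46 in the p53LKO HCC and 0.91, 1.09, 1.52, 0.96 and 1.55 in the ICC. All p53LKO HCC lay above all tumors of both other groups, which overlapped each other. It rose 2.11-fold in p53LKO HCC (log2 fold change 1.07 ± 0.23 (SE), adjusted p = 0.00506) and fell 2.06-fold in ICC against p53LKO HCC (log2 fold change -1.04 ± 0.19 (SE), adjusted p = 0.00149). Both changes were near the fold limit, and they fell below it with the 2 tumors of 1 p53f/f mouse averaged (0.98, adjusted p = 0.0145) and with the mouse as a block (-0.93, adjusted p = 0.0223). Without p53f/f replicate 5 the first was 0.95, and without p53LKO HCC replicate 5 or ICC replicate 1 or 4 the second was between -0.99 and -0.97.

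Pfkl, the liver subunit, had levels of -0.17, 0.32, 0.31, 0.49 and -0.22 in the p53f/f HCC, 1.36, -0.051, 1.78, 0.60 and 1.03 in the p53LKO HCC and 0.60, -0.19, 1.10, -0.047 and 1.12 in the ICC. In both p53LKO groups replicates lay on either side of the highest p53f/f value, and no comparison was called. The largest change was 0.80 between the HCC groups (adjusted p = 0.0779), which was called without p53LKO replicate 2 (1.05, adjusted p = 0.0135). Pfkp, the platelet subunit, had levels of -0.48, -1.91, 0.017, 0.86 and -0.89 in the p53f/f HCC, 1.54, -1.99, 0.024, -1.59 and -0.71 in the p53LKO HCC and -0.14, 0.45, 0.46, 0.67 and -0.049 in the ICC. Its HCC values were widely scattered in both genotypes while the ICC were tight, and no comparison was called. In ICC against p53LKO HCC it was called without p53LKO HCC replicate 1 (1.35, adjusted p = 0.0213) and in ICC against p53f/f HCC without p53f/f replicate 4 (1.10, adjusted p = 0.0495).

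Fructose 2,6-bisphosphate activates phosphofructokinase and inhibits fructose bisphosphatase 1, and the bifunctional enzymes that set it were not all called in 1 direction. Pfkfb3, the inducible form with high kinase activity, had levels of 0.16, 2.07, 1.07, 1.25 and 1.69 in the p53f/f HCC, 2.77, 1.45, 2.28, 1.37 and 1.01 in the p53LKO HCC and 3.17, 4.09, 3.96, 3.01 and 4.15 in the ICC. All ICC lay above all HCC of both genotypes, which overlapped each other. It rose 3.73-fold in ICC against p53LKO HCC (log2 fold change 1.90 ± 0.37 (SE), adjusted p = 0.00222) and 5.37-fold against p53f/f HCC (log2 fold change 2.42 ± 0.37 (SE), adjusted p = 0.000954). A dimmer second probe gave the first call but not the second (log2 fold change 0.89 ± 1.15 (SE), adjusted p = 0.564), and with the mean of both probes the second was 1.66 (adjusted p = 0.0610). Pfkfb1, the liver form, had levels of 3.03, 0.78, 0.75, 2.56 and 2.34 in the p53f/f HCC, 0.77, 1.08, 1.09, 1.53 and 1.59 in the p53LKO HCC and 1.25, -0.81, -0.26, 1.25 and -0.12 in the ICC. The p53f/f HCC fell apart into 3 high tumors and a pair of low ones at the low end of the p53LKO HCC. It was called lower in ICC against p53f/f HCC (log2 fold change -1.63 ± 0.56 (SE), adjusted p = 0.0426; exact permutation p = 0.0476), a call lost without p53f/f replicate 1, 4 or 5 or ICC replicate 2, 3 or 5 (-1.53 to -1.35, adjusted p = 0.0793 to 0.0991). That call was also lost with the 2 tumors of 1 p53f/f mouse averaged and with the slide as a block. Pfkfb1 was not called against p53LKO HCC (-0.95, adjusted p = 0.0739), except without ICC replicate 1 or 4 (-1.20 and -1.20).

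Pfkfb2, the heart form, had levels of -1.69, -1.65, -1.51, -1.68 and -1.72 in the p53f/f HCC, -2.32, -2.59, -3.59, -2.42 and -2.90 in the p53LKO HCC and -1.57, -1.32, -1.59, -1.62 and -1.21 in the ICC. The p53LKO HCC lay below all tumors of the other groups. It fell 2.16-fold in p53LKO HCC (log2 fold change -1.11 ± 0.23 (SE), adjusted p = 0.00446) and was 2.47-fold higher in ICC than there (log2 fold change 1.30 ± 0.24 (SE), adjusted p = 0.00176), with no call between ICC and p53f/f HCC. The probe was above background on 5, 4 and 5 of the 5 arrays of the groups, and the fall was within the fold limit without p53LKO replicate 3 (-0.91), with the slide as a block (-0.98), with normexp background (-0.61), under quantile normalization (-0.69) and under spike-in scaling (-0.38, adjusted p = 0.237). The difference of ICC did so in the lower row alone (0.99), with normexp background (0.76) and under quantile normalization (0.99). Pfkfb4, the testis form, had levels of 0.34, 0.55, 0.54, 0.78 and 0.43 in the p53f/f HCC, 0.53, 0.13, 1.004, 0.39 and 0.99 in the p53LKO HCC and 1.17, 1.73, 1.48, 1.4996 and 1.53 in the ICC. The ICC lay above all HCC, and the changes of 0.87 and 0.96 passed the adjusted p (0.00631 and 0.00173) but not the fold limit. In the lower row alone it was called against p53LKO HCC (1.15). Against p53f/f HCC it was called without p53f/f replicate 4 or ICC replicate 1 (1.02 and 1.03).

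**Figure D3:**
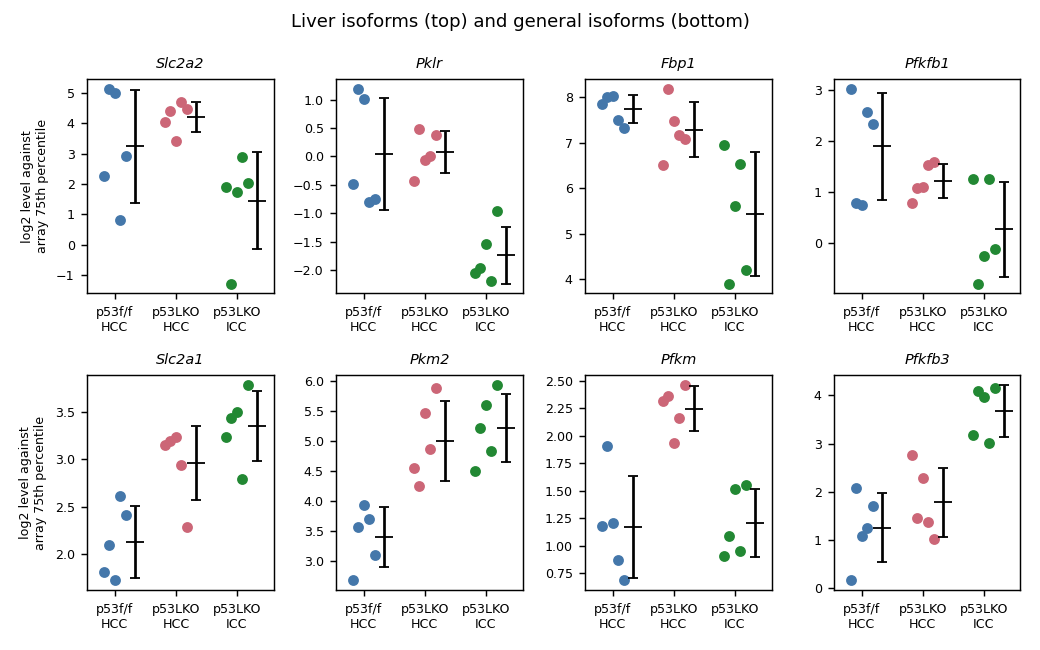
Level of 4 liver isoforms (top row) and 4 general isoforms (bottom row) on each array (points, log2 relative to the 75th percentile of the array), with mean and SD of the 5 tumors of a group (bars). Scales differ between panels. The ICC lay below all p53LKO HCC for Slc2a2 and Pklr and above all HCC for Pfkfb3, while both p53LKO groups lay above all p53f/f HCC for Pkm2.

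The remaining enzymes of upper glycolysis were Gpi1, Aldoa, Aldoc and Tpi1. Aldoa, the aldolase of muscle and most other cells, had levels of 4.96, 5.48, 6.19, 5.92 and 5.33 in the p53f/f HCC, 6.99, 6.35, 6.62, 6.56 and 6.89 in the p53LKO HCC and 6.08, 6.80, 7.07, 6.35 and 7.34 in the ICC. All p53LKO HCC lay above all p53f/f HCC, and the ICC lay above all p53f/f HCC but for replicate 1. It rose 2.15-fold in p53LKO HCC (log2 fold change 1.11 ± 0.24 (SE), adjusted p = 0.00595) and 2.22-fold in ICC against p53f/f HCC (log2 fold change 1.15 ± 0.30 (SE), adjusted p = 0.0141). The first was 0.95 without p53f/f replicate 1 and the second 0.995 without that array and 0.995 without ICC replicate 5, just under the fold limit. Gpi1, which turns glucose 6-phosphate to fructose 6-phosphate, was called lower in ICC against p53LKO HCC by all 3 of its probes (log2 fold change -1.17 ± 0.17 (SE), adjusted p = 0.000489), and all ICC lay below all p53LKO HCC. In the lower row alone its change was -0.92 and under quantile normalization -0.74, within the fold limit. Tpi1, the triose phosphate isomerase, changed by 0.65 and -0.99 in p53LKO HCC and in ICC against it, past the adjusted p (0.0188 and 0.00210) but within the fold limit. In the latter a second probe was called lower (log2 fold change -1.33 ± 0.22 (SE), adjusted p = 0.000981), and the first was called in the lower row alone (-1.07), with normexp background (-1.05) and without any 1 of p53LKO HCC replicates 1, 4 and 5 or ICC replicates 3 and 5 (up to -1.11). Aldoc, the brain aldolase, was called in no comparison, with changes between 0.092 and 0.50.

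In lower glycolysis the most marked values belonged to the pyruvate kinases and the enolases. Pkm2, the pyruvate kinase of muscle and growing cells, had levels of 2.68, 3.57, 3.93, 3.70 and 3.098 in the p53f/f HCC, 4.55, 4.24, 5.46, 4.86 and 5.89 in the p53LKO HCC and 4.50, 5.22, 5.60, 4.84 and 5.93 in the ICC. All tumors of both p53LKO groups lay above all p53f/f HCC. It rose 3.04-fold in p53LKO HCC (log2 fold change 1.61 ± 0.34 (SE), adjusted p = 0.00506) and 3.54-fold in ICC (log2 fold change 1.82 ± 0.32 (SE), adjusted p = 0.00203), and the HCC and ICC of p53LKO mice differed by 0.22 (adjusted p = 0.644). The brightest probe maps to a copy on chromosome 5, and the probe in the gene itself (chr9:59526867-59526926, mm9) was also called in both (log2 fold change 1.53 ± 0.33 (SE), adjusted p = 0.00508 and log2 fold change 1.92 ± 0.32 (SE), adjusted p = 0.00154). The gene makes the M1 and M2 forms by splicing, which these probes were not used to part.

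Pklr, the pyruvate kinase of liver and red cells, had levels of -0.48, 1.20, 1.01, -0.81 and -0.75 in the p53f/f HCC, -0.43, 0.48, -0.062, 0.0013 and 0.38 in the p53LKO HCC and -2.05, -1.97, -1.55, -2.19 and -0.96 in the ICC. All ICC lay below all HCC of both genotypes. It fell 3.52-fold in ICC against p53LKO HCC (log2 fold change -1.82 ± 0.27 (SE), adjusted p = 0.000501) and 3.43-fold against p53f/f HCC (log2 fold change -1.78 ± 0.44 (SE), adjusted p = 0.0113), while the HCC groups differed by 0.041 (adjusted p = 0.951). The second call was lost with the slide as a block (-1.60, adjusted p = 0.0940).

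Enolase makes phosphoenolpyruvate. Eno1, the form of most cells, had levels of 5.50, 7.03, 6.70, 5.41 and 5.84 in the p53f/f HCC, 7.20, 7.45, 7.11, 7.65 and 7.08 in the p53LKO HCC and 6.36, 6.50, 6.45, 6.16 and 7.08 in the ICC. It rose 2.30-fold in p53LKO HCC (log2 fold change 1.20 ± 0.32 (SE), adjusted p = 0.0149), where no tumor overlapped with p53f/f HCC, and its difference of -0.79 in ICC against p53LKO HCC passed the adjusted p (0.00981) but not the fold limit. Its 1 probe maps to a copy on chromosome 2 rather than to the gene. In the upper row alone the change was 1.18 (adjusted p = 0.0566).

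Eno2, the neuronal form, ran the other way between the HCC groups. Its levels were -2.44, -2.81, -2.38, -2.68 and -2.25 in the p53f/f HCC, -3.85, -4.34, -3.08, -3.76 and -3.57 in the p53LKO HCC and -1.97, -1.17, -1.08, -1.61 and -1.35 in the ICC, and it was well above background on 5, 3 and 5 of the 5 arrays of the groups in that order. The groups did not overlap in any comparison: p53LKO HCC were the lowest, p53f/f HCC stood between, and ICC were the highest. It fell 2.31-fold in p53LKO HCC (log2 fold change -1.20 ± 0.23 (SE), adjusted p = 0.00282), was 4.86-fold higher in ICC than there (log2 fold change 2.28 ± 0.25 (SE), adjusted p = 0.000121) and 2.11-fold higher in ICC than in p53f/f HCC (log2 fold change 1.08 ± 0.21 (SE), adjusted p = 0.00332). The first call was lost in the upper row alone (-0.95), with normexp background (-0.56), under quantile normalization (-1.03, adjusted p = 0.151) and under spike-in scaling (-0.47, adjusted p = 0.151). The last was lost without ICC replicate 3 (0.99), with normexp background (0.58) and with the slide as a block (0.78). Eno3, the muscle form, was called higher in ICC against p53f/f HCC (log2 fold change 1.07 ± 0.31 (SE), adjusted p = 0.0210), a call that needed p53f/f replicate 3 and ICC replicates 3 and 5 (0.93, 0.87 and 0.93 without them) and was lost with the slide as a block (0.68, adjusted p = 0.215). Between the HCC groups its change of 0.86, without overlap, passed the adjusted p (0.0124) but not the fold limit. ICC and p53LKO HCC differed by 0.21 (adjusted p = 0.603).

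Gapdh, Pgk1 and Pgam1, the enzymes between the aldolases and the enolases, lay between 0.29 and 0.71 in p53LKO HCC by their brightest probes, with no call. Of the other Gapdh probes, changes of 0.86 and 0.80 there passed the adjusted p (0.00490 and 0.00378) but not the fold limit. Changes of 0.28 and 0.26 passed neither (adjusted p = 0.157 and 0.246). In ICC against p53LKO HCC Pgam1 was called lower (log2 fold change -1.12 ± 0.22 (SE), adjusted p = 0.00223), though not with the mouse as a block (-0.91, adjusted p = 0.0302) or without p53LKO HCC replicate 5 (-0.97), and Gapdh (-0.94) and Pgk1 (-0.95) passed the adjusted p but not the fold limit. Without ICC replicate 5 both were called (-1.01 and -1.02), and Pgk1 also without p53LKO HCC replicate 1 (-1.12). For Gapdh 6 of its 9 probes were called lower there, with the rest between -0.95 and -0.80. All 9 map to copies on other chromosomes. Pgam2, the muscle form, was dim and called in no comparison (-1.21 in ICC against p53LKO HCC, adjusted p = 0.0946), except there without p53LKO HCC replicate 1 or ICC replicate 5 (-1.53 and -1.53).

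Lactate dehydrogenase interconverts pyruvate and lactate, and of its 2 subunits Ldhb was the 1 called. Ldha, the muscle subunit and a well known gene of tumor glycolysis, had levels of 8.52, 7.53, 7.81, 8.15 and 7.92 in the p53f/f HCC, 7.25, 7.99, 8.15, 7.76 and 7.85 in the p53LKO HCC and 7.57, 7.37, 7.60, 7.67 and 7.72 in the ICC. The groups overlapped in each comparison, changes lay between -0.40 and -0.19, and none was called by any of its 3 probes. Ldhb, the heart subunit, had levels of -0.23, -0.85, -2.20, -1.09 and 0.0027 in the p53f/f HCC, -1.25, -1.35, -0.96, -2.67 and -2.07 in the p53LKO HCC and 0.51, 0.88, 1.004, 0.61 and 0.51 in the ICC. All ICC lay above all HCC, and within ICC the values were tight. It rose 5.13-fold against p53LKO HCC (log2 fold change 2.36 ± 0.31 (SE), adjusted p = 0.000265) and 2.98-fold against p53f/f HCC (log2 fold change 1.58 ± 0.36 (SE), adjusted p = 0.00801), while the difference between the HCC groups was -0.78 (adjusted p = 0.194), which was called without p53f/f replicate 3 (-1.12, adjusted p = 0.0463). With the slide as a block the rise against p53f/f HCC was 1.17 (adjusted p = 0.0990).

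The pyruvate dehydrogenase kinases hold pyruvate back from the mitochondrial oxidation. Pdk3 had levels of -3.17, -3.66, -3.82, -3.46 and -2.39 in the p53f/f HCC, -3.16, -4.35, -2.13, -4.84 and -3.39 in the p53LKO HCC and -1.60, -1.34, -1.21, -1.66 and -1.45 in the ICC and was above background on 4, 2 and 5 of 5 arrays of the groups in that order. All ICC lay above all HCC, and it was called higher against both p53LKO HCC (log2 fold change 2.12 ± 0.43 (SE), adjusted p = 0.00288) and p53f/f HCC (log2 fold change 1.85 ± 0.26 (SE), adjusted p = 0.000635). Since few p53LKO HCC arrays had it above background, the size of the first change rests on dim signals. With normexp background these changes were 0.97 and 0.83, within the fold limit. Pdk1 ran the other way, called lower in ICC against both p53LKO HCC (log2 fold change -1.44 ± 0.25 (SE), adjusted p = 0.00131) and p53f/f HCC (log2 fold change -1.11 ± 0.23 (SE), adjusted p = 0.00517) with no overlap in either. The latter was -0.997 without ICC replicate 5 and -0.89 with the slide as a block (adjusted p = 0.0695). Pdk2 was called lower against p53LKO HCC (log2 fold change -1.19 ± 0.31 (SE), adjusted p = 0.0111) but not without ICC replicate 2 (-0.90), and Pdk4, the fasting induced form, was called in no comparison, with its tumors spread from -1.56 to 1.94. Without p53f/f replicate 2 or p53LKO replicate 5 it was called higher in p53LKO HCC (1.79 and 1.93).

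**Figure D4:**
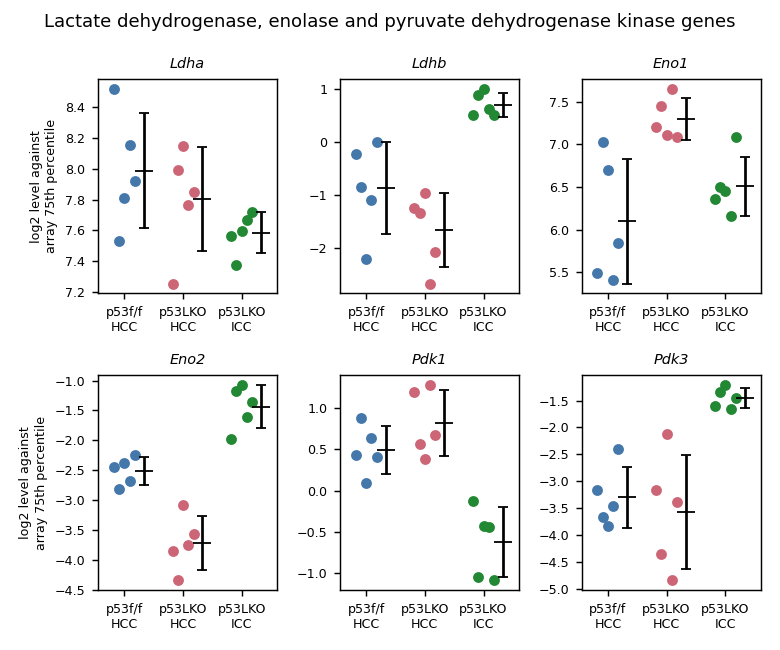
Level of both lactate dehydrogenase subunits, 2 enolases and 2 pyruvate dehydrogenase kinases on each array (points, log2 relative to the 75th percentile of the array), with mean and SD of the 5 tumors of a group (bars). Scales differ between panels. ICC lay above all HCC for Ldhb, Eno2 and Pdk3 and below all HCC for Pdk1, and the groups overlapped for Ldha.

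In gluconeogenesis the largest difference between the HCC groups was that of Pck1, the cytosolic phosphoenolpyruvate carboxykinase that opens the path to glucose. Its levels were 5.65, 4.92, 5.12, 6.59 and 6.49 in the p53f/f HCC, 2.27, 4.37, 3.18, 2.57 and 1.23 in the p53LKO HCC and 4.84, 0.80, 2.83, 5.72 and 3.07 in the ICC. None of the p53LKO HCC reached the lowest p53f/f value, and the ICC ran from the lowest value of all groups to the level of the p53f/f HCC. It fell 8.17-fold in p53LKO HCC (log2 fold change -3.03 ± 0.54 (SE), adjusted p = 0.00196), and in the upper row alone the difference was -3.43. It was called lower in ICC against p53f/f HCC too (log2 fold change -2.30 ± 0.80 (SE), adjusted p = 0.0455; exact permutation p = 0.0397), with ICC replicate 4 inside the p53f/f range. That call was lost without any 1 of p53f/f replicates 1, 3, 4 and 5 or ICC replicates 2, 3 and 5 (-2.46 to -1.64, adjusted p = 0.0581 to 0.0973) and with the 2 tumors of 1 p53f/f mouse averaged (-2.10, adjusted p = 0.0943). Pck2, the mitochondrial form, was dim and lay within -0.078 and 0.14 in the 3 comparisons.

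Pcx, the pyruvate carboxylase that feeds Pck1, had levels of 5.37, 6.85, 5.76, 5.65 and 5.75 in the p53f/f HCC, 6.47, 6.88, 6.52, 6.53 and 7.31 in the p53LKO HCC and 4.41, 2.16, 4.12, 4.27 and 3.58 in the ICC. All ICC lay below all HCC. It fell 8.17-fold against p53LKO HCC (log2 fold change -3.03 ± 0.40 (SE), adjusted p = 0.000282) and 4.49-fold against p53f/f HCC (log2 fold change -2.17 ± 0.43 (SE), adjusted p = 0.00397), while its difference of 0.86 between the HCC groups passed the adjusted p (0.0380) but not the fold limit. Without p53f/f replicate 2, which stood above the rest of its group, that difference was called (1.11, adjusted p = 0.00394). With the slide as a block the fall against p53f/f HCC was -1.85 (adjusted p = 0.0529).

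Fbp1, the fructose bisphosphatase of liver, had levels of 7.85, 8.00, 8.02, 7.51 and 7.32 in the p53f/f HCC, 6.51, 8.19, 7.48, 7.17 and 7.09 in the p53LKO HCC and 6.95, 3.91, 5.61, 6.52 and 4.20 in the ICC. The ICC fell apart into 3 tumors between 5.61 and 6.95 and a pair at 3.91 and 4.20, and replicates 1 and 4 lay above the lowest p53LKO HCC. It fell 4.94-fold in ICC against p53f/f HCC (log2 fold change -2.30 ± 0.55 (SE), adjusted p = 0.00916) and 3.60-fold against p53LKO HCC (log2 fold change -1.85 ± 0.58 (SE), adjusted p = 0.0242), the latter lost without p53LKO HCC replicate 2 (-1.62, adjusted p = 0.0556) or ICC replicate 2 (-1.47, adjusted p = 0.0542) with the mouse as a block (-2.17, adjusted p = 0.0504), with the row as a block (-1.91, adjusted p = 0.102) and under quantile normalization (-1.49, adjusted p = 0.0759). With the slide as a block the former was -1.58, adjusted p = 0.114. Fbp2, the muscle form, was above background on 4 of the 15 arrays, at levels of -6.72, -5.68, -2.76, -6.32 and -5.15 in the p53f/f HCC, -5.32, -4.27, -2.85, -4.58 and -4.25 in the p53LKO HCC and -4.51, -3.89, -5.02, -4.78 and -3.78 in the ICC, and was not called. Between the HCC groups it was called without p53f/f replicate 3, the highest of its group (1.72, adjusted p = 0.0223).

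G6pc, the glucose 6-phosphatase that releases glucose, had levels of 2.92, 3.36, 4.47, 3.24 and 3.55 in the p53f/f HCC, 4.34, 2.37, 3.67, 2.37 and 3.18 in the p53LKO HCC and 3.51, 0.18, 1.58, 3.14 and -0.50 in the ICC. In ICC 2 tumors lay near the HCC, 1 between, and 2 were far below, and no comparison was called (log2 fold change -1.60 ± 0.76 (SE), adjusted p = 0.107 against p53LKO HCC; log2 fold change -1.92 ± 0.72 (SE), adjusted p = 0.0602 against p53f/f HCC). It was called with the mouse as a block (-1.99, adjusted p = 0.0313), and without ICC replicate 1 it was -2.08 and -2.41 (adjusted p = 0.0395 and 0.0212). Without ICC replicate 4 it was -2.31 against p53f/f HCC (adjusted p = 0.0316). It was also called lower against p53f/f HCC with normexp background (-1.80, adjusted p = 0.0488), and at an unchanged difference with probes above background on every array (adjusted p = 0.0472), with no filter on dim probes (0.0420) and with all 15 arrays in 1 model (0.0374), so that its call turned on the setting.

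Both glycogen genes fell in ICC. Gys2, the glycogen synthase of liver, had levels of 6.28, 5.05, 4.17, 5.82 and 5.53 in the p53f/f HCC, 5.80, 5.27, 5.66, 5.55 and 5.33 in the p53LKO HCC and 3.01, -0.19, 2.39, 3.20 and 2.49 in the ICC. All ICC lay below all HCC, with replicate 2 again far below the others. It fell 10.1-fold against p53LKO HCC (log2 fold change -3.34 ± 0.54 (SE), adjusted p = 0.000869), the largest fall of these genes in that comparison, and 9.12-fold against p53f/f HCC (log2 fold change -3.19 ± 0.62 (SE), adjusted p = 0.00348), and a second probe was called in both. Pygl, the glycogen phosphorylase of liver, had levels of 6.71, 6.67, 6.37, 6.15 and 6.08 in the p53f/f HCC, 5.92, 5.46, 6.46, 6.76 and 6.40 in the p53LKO HCC and 4.90, 2.75, 4.30, 5.04 and 3.07 in the ICC. All ICC lay below all HCC, and it fell 4.57-fold (log2 fold change -2.19 ± 0.46 (SE), adjusted p = 0.00363) and 5.22-fold (log2 fold change -2.39 ± 0.44 (SE), adjusted p = 0.00258). In the lower row alone the first fall was -1.68 (adjusted p = 0.106). Between the HCC groups the changes were 0.15 and -0.19 with no call.

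Of the 13 genes called lower in ICC against p53LKO HCC, 6 had their lowest ICC value in replicate 2 and 5 in replicate 4. Of the 8 called lower against p53f/f HCC, 6 had it in replicate 2, whose hepatocyte markers summed to the lowest level of the group. Without this array 11 (25.0%, against 13.8% of all genes) and 6 genes (14.0%, against 10.4%) were called lower. The 10 hepatocyte markers themselves changed by a median of -1.70 and -2.11 in these comparisons, with 7 of 10 called lower in each, and by -0.43 with 1 called lower between the HCC groups. The part of hepatocyte content in the changes of these genes was not tested.

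**Figure D5:**
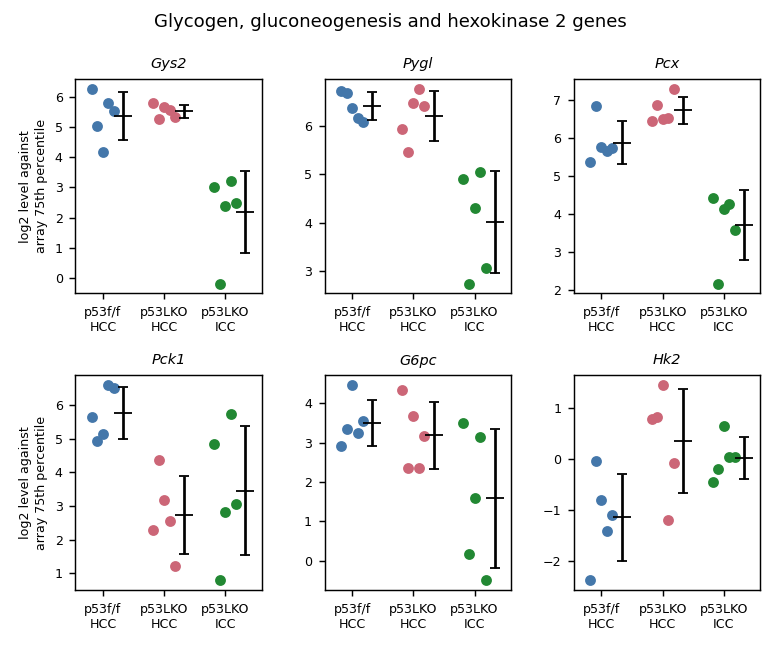
Level of the liver glycogen genes Gys2 and Pygl, the gluconeogenic genes Pcx, Pck1 and G6pc, and Hk2 on each array (points, log2 relative to the 75th percentile of the array), with mean and SD of the 5 tumors of a group (bars). Scales differ between panels. All ICC lay below all HCC for Gys2, Pygl and Pcx, and for Pck1 no p53LKO HCC reached the lowest p53f/f value.

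In the pentose phosphate pathway, which makes NADPH and ribose, Tkt was the gene called both between the HCC groups and in ICC against p53LKO HCC. This transketolase had levels of 4.37, 6.22, 6.38, 5.09 and 4.75 in the p53f/f HCC, 6.25, 6.70, 6.06, 7.47 and 6.79 in the p53LKO HCC and 5.34, 5.41, 5.38, 5.18 and 5.99 in the ICC. It rose 2.45-fold in p53LKO HCC (log2 fold change 1.29 ± 0.42 (SE), adjusted p = 0.0362), where 3 of the 5 tumors lay above all p53f/f HCC, and fell 2.29-fold in ICC against p53LKO HCC (log2 fold change -1.19 ± 0.27 (SE), adjusted p = 0.00522) with no overlap. The rise was lost without any 1 of p53f/f replicates 1, 4 and 5 or p53LKO replicates 2, 4 and 5 (1.04 to 1.28, adjusted p = 0.0600 to 0.0863), with the 2 tumors of 1 p53f/f mouse averaged (1.18, adjusted p = 0.0806) and in the upper row alone (1.41, adjusted p = 0.0755). The fall was lost with the row as a block (-1.01, adjusted p = 0.0636), under quantile normalization (-0.69) and without p53LKO HCC replicate 4 (-0.99).

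G6pdx, the enzyme that opens the pathway, had levels of 1.46, 1.64, 3.58, 1.48 and 2.05 in the p53f/f HCC, 1.53, 1.94, 2.38, 2.29 and 2.46 in the p53LKO HCC and 2.21, 2.68, 2.77, 2.42 and 3.50 in the ICC. The groups overlapped, p53f/f replicate 3 stood far above the rest of its group, and no comparison was called. Without that array it was called higher in ICC against p53f/f HCC (1.06, adjusted p = 0.0163). Pgd was called lower in ICC against p53LKO HCC (log2 fold change -1.16 ± 0.23 (SE), adjusted p = 0.00278), a call lost with the row as a block (-0.85, adjusted p = 0.0518), in the lower row alone (-0.85, adjusted p = 0.0561), under quantile normalization (-0.73) and without p53LKO HCC replicate 4 (-0.996). Taldo1 passed the adjusted p there but not the fold limit (-0.84, adjusted p = 0.00135).

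Grouped by isoform, none of the 5 liver forms (Slc2a2, Pfkl, Pklr, Fbp1 and Pfkfb1) was called between the HCC groups, 3 were called lower in ICC against p53LKO HCC (median change -1.82) and 3 against p53f/f HCC (-1.78), and none was called higher. With the slide as a block the 3 calls against p53f/f HCC (Pklr, Fbp1 and Pfkfb1) were lost. In the lower row alone those of Slc2a2 and Fbp1 against p53LKO HCC were lost and that of Pklr was kept. Of the 9 general forms (Slc2a1, Slc2a3, Pfkm, Pfkp, Pkm2, Fbp2, Pfkfb2, Pfkfb3 and Pfkfb4), 2 were called higher and 1 lower between the HCC groups (median 0.53), 2 higher and 1 lower in ICC against p53LKO HCC (0.71), and 3 of 8 tested higher and none lower in ICC against p53f/f HCC (0.96). The median of 0.71 was the change of Slc2a3, and that of 0.96 lay between the changes of Slc2a3 and Pfkfb4. Slc2a3 was above background on 4, 3 and 1 of 5 arrays of p53f/f HCC, p53LKO HCC and ICC, so both medians rest in part on a dim signal. Over all genes the medians were 0.094, -0.19 and -0.16, and 5.42%, 12.3% and 11.3% were called higher and 9.0%, 15.5% and 11.9% lower. The lists are too short for their shares to be read closely against these. The comparisons share tumors, so these counts are not independent of each other.

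The difference between a general and a liver isoform on the same array is free of any factor common to the whole array. For Pkm2 against Pklr it changed by 1.57 ± 0.49 (SE) from p53f/f to p53LKO HCC, where the groups overlapped, by 2.03 ± 0.34 (SE) from p53LKO HCC to ICC and by 3.60 ± 0.39 (SE) from p53f/f HCC to ICC, both without overlap. For Pfkfb3 against Pfkfb1 it changed by 4.05 ± 0.97 (SE) from p53f/f HCC to ICC without overlap and by 2.85 ± 0.80 (SE) from p53LKO HCC with overlap. For Slc2a1 against Slc2a2 it changed by 3.15 ± 0.86 (SE) from p53LKO HCC to ICC without overlap, and by 3.00 ± 1.22 (SE) from p53f/f HCC with overlap, since Slc2a2 was spread so widely there. From p53f/f to p53LKO HCC it changed by -0.15 ± 1.001 (SE) for this pair, by -0.73 ± 1.13 (SE) for Slc2a3 against Slc2a2, by -0.86 ± 0.61 (SE) for Pfkp against Pfkl and by -0.43 ± 0.58 (SE) for Pfkfb2 against Pfkfb1. It changed by 1.21 ± 0.85 (SE) and 0.76 ± 0.53 (SE) for Pfkfb3 and Pfkfb4 against Pfkfb1, and by 1.53 ± 0.75 (SE) for the dim Fbp2 against Fbp1. For Pfkm against Pfkl the changes were 0.28 ± 0.43 (SE), -0.61 ± 0.42 (SE) and -0.34 ± 0.28 (SE), all with overlap. Between the HCC groups none of the 9 pairs was free of overlap. To ICC, Slc2a3 against Slc2a2 changed by 3.47 from p53LKO HCC without overlap and by 2.74 from p53f/f HCC with overlap. Pfkfb2 against Pfkfb1 did likewise (2.25 and 1.82). In the same order Pfkfb4 against Pfkfb1 changed by 1.82 and 2.59, without overlap. Pfkp against Pfkl changed by 1.25 and 0.39 and the dim Fbp2 against Fbp1 by 1.71 and 3.23, all with overlap.

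Split by the promoter match, ACGTG was found before 4 of the 6 genes called higher and 1 of the 3 called lower in p53LKO HCC, and before 11 of 33 not called. In ICC against p53f/f HCC it was found before 6 of 9 called higher (Pfkfb3, Pdk3, Pkm2, Slc2a1, Hk2 and Aldoa), 2 of 7 called lower with an entry (Pygl and Pcx) and 7 of 25 not called. In ICC against p53LKO HCC it was found before 3 of 5, 5 of 12 and 8 of 25. The numbers are small and no test was made of them.

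Of 70 further genes of the same pathways, listed with earlier results known, 66 were tested in each comparison. In p53LKO HCC 4 were called higher and none lower (2 passed an adjusted p of 0.05 downwards without the fold limit), with a median of 0.20. These were 6.06% and 0.00%, against 5.42% and 9.0% of all genes, and the largest change was that of the lactate exporter Slc16a3 (log2 fold change 1.97 ± 0.42 (SE), adjusted p = 0.00534). In ICC against p53LKO HCC 5 were called higher (7.58%, against 12.3% of all genes) and 25 lower (37.9%, against 15.5%), with a median of -0.73. Largest were the rise of Slc2a6, a lysosomal hexose transporter (log2 fold change 4.18 ± 0.46 (SE), adjusted p = 0.000114), and the falls of the fructose transporter Slc2a5 (log2 fold change -4.30 ± 0.60 (SE), adjusted p = 0.00039), the glycogen branching enzyme Gbe1 (log2 fold change -3.68 ± 0.40 (SE), adjusted p = 0.000107) and ketohexokinase Khk (log2 fold change -3.55 ± 0.44 (SE), adjusted p = 0.000201). Tkfc, which acts after ketohexokinase in fructose breakdown, and Gckr, which encodes the regulator of glucokinase, changed by -3.14 and -2.76 on the log2 scale, and both were called lower. In ICC against p53f/f HCC 7 were called higher (10.6%, against 11.3% of all genes) and 18 lower (27.3%, against 11.9%; median -0.58), with Slc16a3 (log2 fold change 3.52 ± 0.27 (SE), adjusted p = 1.73e-05) and Slc2a6 (log2 fold change 4.80 ± 0.28 (SE), adjusted p = 4.15e-06) again among the 7.

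Within slides and rows the signs were kept. All 9 genes called between the HCC groups had the sign of their call on slide 1 (2 against 4 arrays), on slide 2 (3 against 1) and in the upper row (3 against 5). All 18 called in ICC against p53LKO HCC had it on slide 1 (1 against 2), on slide 2 (4 against 3) and in the lower row (5 against 2). The 17 called in ICC against p53f/f HCC had it on slide 1 (1 against 4) and slide 2 (4 against 1). A slide holds few arrays of some groups, so these are signs and no tests. The same arrays made the calls. The groups did not overlap for 7 of the 9, 17 of the 18 and 13 of the 17 genes, which keep their sign in any subset. The agreement was thus largely fixed in advance.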

How the data were processed

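Per the labels and the study's methods, whole-tumor RNA was amplified and labelled in 1 colour and hybridised to Agilent SurePrint G3 8x60K arrays, and the authors read the scans with Feature Extraction 10.7.3.1. The deposited scanner values are processed signal intensities, background-subtracted by the scanner software. A deposited table of log2 values, which the authors made in GeneSpring, was used as an alternative only. On the HCC arrays, the only ones for which it was used, its values correlated with the rebuilt ones at 1 after each probe was centred. The medians of all its columns were -0.325 to 0.344.

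Flagged outlier spots were left out, spots of a probe averaged, and each array's 75th percentile over its non-control probes subtracted on the log2 scale. A probe entered a test if 3 or more arrays of either group had it well above background. Tests used limma 3.58.1 (lmFit and eBayes) in R 4.3.3 with Benjamini-Hochberg adjustment over all probes tested, on the 10 arrays of each comparison. The script was tested on simulated data. For each gene the probe brightest on average over all arrays was taken, other probes being given where their call differed. Genes were given in full when they belonged to an isoform pair or a set of 7 chosen by role, or were among the 5 largest rises or falls of a comparison. The genes and gene lists were chosen with earlier results of these data known. A few genes of the marker and pathway lists are not reported here and were left out of their counts and sums.

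Brightest probes lay on the gene's own chromosome for 36 of the 44 genes by the array's mm9 annotation, on another for Hk1, Gapdh, Eno1 and Pkm2, and were unmapped for Pfkp, Pgam2, Pklr and Fbp2. No spot was saturated. The number of arrays limits the precision. Pairing by mouse was given by the labels, and deviations of tumors of the same mouse correlated at -0.143 to 0.0654 (4 pairs). Alternatives covered background correction, scaling, the filter on dim probes, slide, row and mouse as blocks, the methods' t-test on the same values, the mean over probes and leaving out each array. The analyses of 1 row alone were added after seeing the data.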

Additional observations from a re-analysis of the deposited data

Results flagged for a closer look

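In 6 of 132 groups of 5 tumors 1 tumor stood apart from the rest by Dixon's test (critical value 0.71), and chance flags about 1 in 20 groups, or 6.6 here. ICC replicate 2 was low for Slc2a2 at -1.28 (the other 4 lay between 1.72 and 2.90) and for Gys2 at -0.19 (2.39 to 3.20), and its hepatocyte markers summed to 9.34, the lowest level of the ICC. Among p53f/f HCC, replicate 2 was high for Pcx at 6.85 (5.37 to 5.76), replicate 3 high for G6pdx at 3.58 (1.46 to 2.05) and replicate 5 low for Pgk1 at 4.999 (5.69 to 5.95). ICC replicate 5 was high for Tkt at 5.99 (5.18 to 5.41). No cause was tested for any of these.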

How the results depend on the processing

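No called gene changed sign under any alternative. Of the single-gene values between the HCC groups 976 kept their side of the thresholds, 23 became called and 50 were lost, against 935, 25 and 45 for ICC against p53LKO HCC and 815, 22 and 62 for ICC against p53f/f HCC. In brackets below, the share of these genes called stands against that of all genes. Between the HCC groups, where 6 genes were called higher and 3 lower, quantile normalization gave 2 higher and 1 lower, the percentile over probes above background on all arrays 1 higher and spike-in scaling 23 higher and 1 lower, with shares given in the report. The methods' t-test gave 3 higher (6.82%, against 3.49%), the upper row alone 3 higher (6.82%, against 4.67%) and no fold limit 10 higher (22.7%, against 14.4%). The replicate block that averages the 2 tumors of 1 p53f/f mouse gave 3 higher (6.82%, against 4.35%). Normexp background (2.27%, against 3.54%) and probes above background on every array (2.70%, against 3.11%) each gave 1 lower. In ICC against p53LKO HCC, with 5 higher and 13 lower, normexp gave 3 higher (6.82%, against 8.67%) and probes above background on every array 2 (5.41%, against 8.09%), while quantile normalization left 7 lower, the percentile over probes above background on all arrays 6, the row as a block 8 and the lower row alone 7. With the mouse as a replicate block 11 were lower (25.0%, against 14.0%), of which 10 were among the 13. In ICC against p53f/f HCC, with 9 higher and 8 lower, normexp gave 5 higher and the slide as a block 4 higher and 2 lower, while the percentile over probes above background on all arrays gave 5 lower, spike-in scaling 4 and the methods' t-test 5 (11.6%, against 9.02%). The replicate block gave 9 higher (20.9%, against 11.2%) and 6 lower (14.0%, against 11.5%) there.

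Leaving out single arrays gave 3 to 8 higher (6.82% to 18.2%, against 3.98% to 6.92%) and 2 to 4 lower (4.55% to 9.09%, against 7.82% to 9.69%) between the HCC groups, 5 to 6 higher (11.4% to 13.6%, against at most 12.8%) and 11 to 17 lower (25.0% to 38.6%, against 13.8% to 16.6%) in ICC against p53LKO HCC, and 6 to 11 higher (14.0% to 25.6%, against 10.2% to 11.7%) and 5 to 9 lower (11.6% to 20.9%, against 10.3% to 12.9%) in ICC against p53f/f HCC. Between the HCC groups the count of 3 came without p53f/f replicate 1 or 5. The causes of these shifts were not tested. Eno2, Pdk3, Slc2a3, Pgam2, Pck2, Pfkfb2 and Fbp2 were above background on only some arrays, so their differences rest on dim signals. A fit with the row as a block was not possible between ICC and p53f/f HCC.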
